A study of Mus musculus with 18 samples.

Results

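Bladders without injury were compared between mice that ate a vitamin A-enriched diet and mice that ate a normal diet. Of the 18 libraries in the series, the 6 from saline-injected mice were taken, 3 per diet, by their labels for injection and diet and not by any measured value. All 6 mice were wild type BALBc females aged 8 weeks, given saline intraperitoneally and killed 1 day later. The diet of the first group was changed 1 week before the injection to a feed with 566081 UI of retinyl acetate per kg according to the sample labels, whereas the series description names retinyl palmitate at a stated multiple of the usual amount. The vitamin A content of the normal diet is not given in the sources used here. Mice were caged in groups of 3 and no cage is given per mouse, so cage and diet cannot be told apart. The other 12 libraries came from mice on the same diets, injected with 150 mg/kg of cyclophosphamide, a drug whose breakdown products injure the bladder lining, and killed 1 or 3 days later. They entered the fit, and the last comparison asks whether the diet difference at rest differed from the one after injury.

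Vitamin A reaches tissues as retinol bound to carrier proteins. Cells either esterify retinol for storage or oxidise it to retinal and then to retinoic acid, which binds nuclear receptors that sit on response elements in DNA and switches genes on. Retinoic acid raises several of the genes that store retinol, reduce retinal and break retinoic acid down, so these genes serve as readouts of the signal. In the bladder the receptors act on the urothelium, a stratified lining with basal cells at the bottom and umbrella cells at the surface, and a lack of vitamin A is known to turn this lining squamous.

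Total counts in the 6 saline libraries ran from 20582993 to 34598952, and mitochondrial genes took 2.36% to 2.98% of them. Pairwise correlations of log2 expression between these libraries lay between 0.968 and 0.981. The tissue label was borne out by its markers, with summed umbrella cell markers (Upk1a, Upk1b, Upk2, Upk3a, Krt20) at 6615 to 6929 counts per 1000000 (CPM) on vitamin A and 6831 to 7168 CPM on the normal diet. A pair of libraries stood apart in other cell types. Vitamin A replicate 3 was high in immune genes and vitamin A replicate 1 in adipocyte genes, and values with and without them are given beside the lists concerned. RNA came from the whole organ, so a smaller share of a cell type and less RNA per cell cannot be told apart.

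On vitamin A 2 genes rose past the threshold at rest, Cyp26b1 and Elf5, and none fell past it. Cyp26b1 is an oxidase that clears retinoic acid from cells. Elf5 is an ETS transcription factor of epithelia. They were 0.0104% of the 19323 genes tested with edgeR's quasi-likelihood test at a Benjamini-Hochberg adjusted p under 0.05. At an unadjusted p under 0.05 there were 730 genes (3.78%), 406 higher on vitamin A (2.1%) and 324 lower (1.68%). Log2 changes are vitamin A over normal, SE is the standard error from the fit, and values per library stand in the order of replicates 1, 2 and 3. Other fits of the counts called more genes, 17 in DESeq2 on all 18 libraries (0.088%), 35 in edgeR on the 6 saline libraries alone (0.201%) and 244 in DESeq2 on those 6 (1.4%). Genes other than Cyp26b1 and Elf5 had adjusted p-values of 0.119 or more in this test, so they are described by their values alone.

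**Figure D1:**
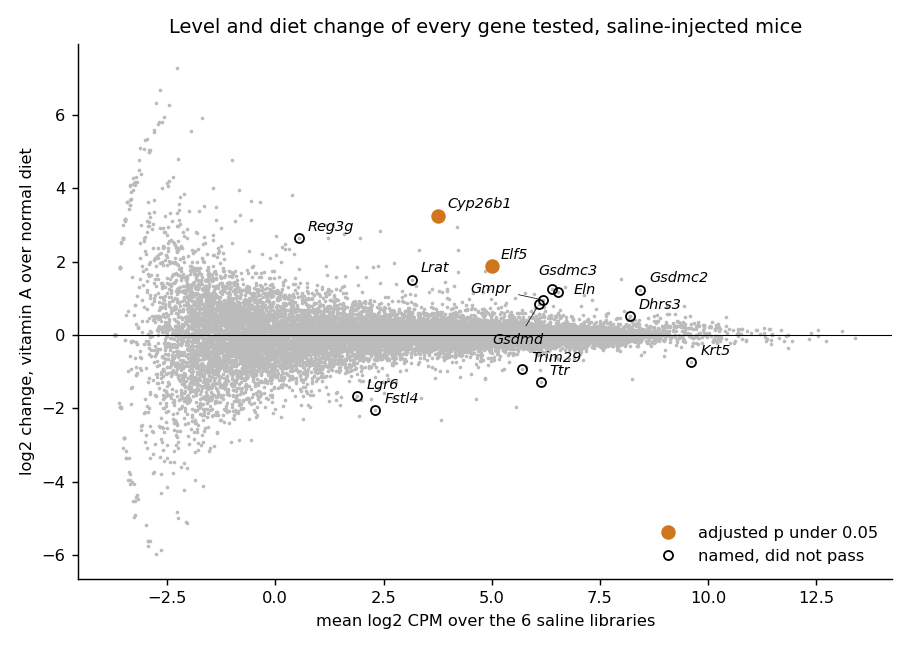
Each grey point is 1 of the 19323 genes tested, with its mean log2 CPM over the 6 saline libraries on the x axis and its fitted log2 change, vitamin A over normal diet, on the y axis. Filled points mark Cyp26b1 (3.26) and Elf5 (1.88), the genes past the threshold, and open circles mark other genes described in the text, such as Gsdmc2 (1.24) and Krt5 (-0.74).

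The breakdown enzymes of retinoic acid are a family of 3 genes, of which Cyp26b1 alone had enough counts to be tested. Cyp26b1 (chr6:84548396-84570890, minus strand, GRCm39) had 44.5, 59.6 and 32.1 CPM on vitamin A and 4.53, 1.94 and 7.57 CPM on the normal diet. Every vitamin A library lay far above every normal one. The fitted log2 change was 3.26 (SE 0.40, edgeR adjusted p = 0.0035), a 9.55-fold difference. In the authors' deposited table the log2 ratio of Cyp26b1, with its sign turned to vitamin A over normal, was 3.27 with an adjusted p of 1.05e-05. The call was lost in edgeR's fit of the 6 saline libraries alone (adjusted p = 0.111) and without normal diet replicate 1 (adjusted p = 0.0731), while the log2 change stayed between 2.90 and 3.81 when any 1 saline library was left out. Cyp26a1, the family member best known as a retinoic acid target in the liver, had 4, 3 and 4 counts on vitamin A and 1, 0 and 0 counts on the normal diet. Cyp26c1 had 2, 3 and 0 counts against 0, 5 and 0. Per gene length, Cyp26b1 stood at 2.55 to 4.68 FPKM (fragments per kilobase of gene, scaled to library size) on vitamin A and Cyp26a1 at 0.0628 to 0.0884 FPKM, so Cyp26b1 was the main breakdown gene measured in this organ.

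Elf5 (chr2:103242443-103281334, plus strand, GRCm39) had 60.1, 72.9 and 51.6 CPM on vitamin A and 13.8, 19.4 and 16.9 CPM on the normal diet. The groups were far apart, and neither held a library near the other. The log2 change was 1.88 (SE 0.25, edgeR adjusted p = 0.00602). Over the 6 saline libraries alone edgeR gave an adjusted p of 0.000729, and the authors' deposited table gives an adjusted p of 9.24e-27. The call was lost without normal diet replicate 1 (edgeR adjusted p = 0.119), normal diet replicate 3 (0.0838) or vitamin A replicate 2 (0.0562), while the log2 change stayed between 1.74 and 2.01 when any 1 saline library was left out. The related ETS factors Elf3 and Ehf, both expressed in simple and stratified epithelia, were compared with it per gene length. Elf5 had 21.9 to 30.6 FPKM on vitamin A and 5.88 to 8.20 FPKM on the normal diet. Elf3 had 68.0 to 90.8 against 58.1 to 64.1 FPKM, and Ehf had 33.6 to 48.8 against 40.2 to 47.2 FPKM. Elf5 was thus the lowest of the 3 on either diet, Elf3 lay slightly higher on vitamin A without passing (log2 0.35) and Ehf overlapped (-0.07).

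Retinoic acid receptors bind as pairs to direct repeats of a hexamer, and the spacing between the repeats differs between targets, so the promoters of Cyp26b1 and Elf5 are shown beside those of 2 textbook targets, Rarb and Cyp26a1. Each sequence is the 250 bases before the gene's start, from RefSeq on GRCm38.p6, an earlier build than the GRCm39 of the count table. A half-site was taken as AGGTCA, the usual form, or as a variant with 1 other base, written AGTTCA for the third position and GGGTCA for the first, or as GGTTCA with both changes. All 4 were searched on both strands, any overlap allowed, and capitals mark a direct repeat of 2 of them with 5 bases between.
Rarb (chr14:16575477-16575726, minus strand): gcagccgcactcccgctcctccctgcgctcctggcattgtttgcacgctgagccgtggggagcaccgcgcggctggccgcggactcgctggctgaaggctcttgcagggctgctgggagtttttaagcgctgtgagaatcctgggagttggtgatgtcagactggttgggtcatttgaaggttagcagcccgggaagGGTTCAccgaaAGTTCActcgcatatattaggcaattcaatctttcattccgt
Cyp26a1 (chr19:37697558-37697807, plus strand): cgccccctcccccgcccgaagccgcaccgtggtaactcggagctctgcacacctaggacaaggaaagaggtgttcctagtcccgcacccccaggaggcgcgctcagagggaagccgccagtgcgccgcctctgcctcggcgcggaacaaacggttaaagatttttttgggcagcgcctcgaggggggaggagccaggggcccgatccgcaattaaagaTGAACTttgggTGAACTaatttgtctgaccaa
Cyp26b1 (chr6:84593811-84594060, minus strand): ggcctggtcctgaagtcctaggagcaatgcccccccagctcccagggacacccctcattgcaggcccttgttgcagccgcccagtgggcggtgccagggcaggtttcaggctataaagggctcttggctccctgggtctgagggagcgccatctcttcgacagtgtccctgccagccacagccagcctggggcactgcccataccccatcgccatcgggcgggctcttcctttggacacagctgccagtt
Elf5 (chr2:103411848-103412097, plus strand): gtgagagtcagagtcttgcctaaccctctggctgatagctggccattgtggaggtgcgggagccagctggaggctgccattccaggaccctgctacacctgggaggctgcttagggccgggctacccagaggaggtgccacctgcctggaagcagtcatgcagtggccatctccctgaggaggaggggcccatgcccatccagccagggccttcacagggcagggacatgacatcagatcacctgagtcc
Rarb carries the repeat in the direction of the gene and Cyp26a1 on the opposite strand, where the half-site AGTTCA reads TGAACT. None of the 4 half-sites is in the Cyp26b1 window or in either Elf5 window held by the table. Of 32851 promoters in the table, 29 carry such a repeat (0.0883%), 57 a repeat with 2 bases between (0.174%), 54 a repeat with 1 base between (0.164%) and 12694 any of the half-sites (38.6%). Of the 46 genes in the list of retinoic acid targets, 31 have a promoter in the table, and Rarb and Cyp26a1 are the ones with the repeat. These are matches of letters in a fixed window and no measurement of binding.

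Storage of retinol was represented by 18 genes in the table, of which 15 were tested. Of these, 11 lay above 0 (50.9% of all genes tested did) and the median log2 change was 0.22, against 0.01 over all genes. The diets did not overlap for 4 members that lay higher on vitamin A and 1 that lay lower, where 7.79% and 7.59% of all genes did so. The summed level was not higher, at 747 to 795 CPM on vitamin A and 773 to 833 CPM on the normal diet. The largest change in the list was that of Lpl, a lipase that adipocytes also make, with 88.4, 30.8 and 52.3 CPM on vitamin A and 13.2, 27.8 and 10.4 CPM on the normal diet (log2 1.75). Lpl and the hormone-sensitive lipase Lipe (0.41) are also in the adipocyte list described further on, whose median was 2.28, and the part of adipocyte content in their values was not tested. Lrat, which esterifies retinol for storage, had 16.0, 21.3 and 11.5 CPM on vitamin A and 8.03, 2.14 and 6.93 CPM on the normal diet. Each vitamin A library was above each normal one, but the spread within both diets was wide (log2 1.51, SE 0.52, edgeR unadjusted p = 0.00919). Dgat1, an acyltransferase that can also esterify retinol, was at 0.33. Ttr, the plasma partner of the retinol carrier, went the other way, with 36.5, 50 and 49.2 CPM on vitamin A and 89.2, 126 and 116 CPM on the normal diet. Its log2 change of -1.29 had an edgeR adjusted p of 1 over all libraries and of 0.00633 over the 6 saline libraries alone. Rbp4, the plasma carrier itself, overlapped between diets (0.19), and Stra6, its membrane receptor, was at 0 to 0.389 CPM in every library.

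Enzymes that interconvert retinol and retinal numbered 25 in the table and 21 tested, with 13 above 0 and a median log2 of 0.04. Dhrs3, which reduces retinal back to retinol, had 339, 343 and 365 CPM on vitamin A and 243, 232 and 258 CPM on the normal diet. Both groups were tight and well separated. The log2 change was 0.51 (SE 0.15), with an edgeR adjusted p of 0.933 over all libraries and 0.0436 over the 6 saline libraries. In the authors' deposited table Dhrs3 had an adjusted p of 7.66e-06. Of the alcohol dehydrogenases, Adh1 and Adh7 lay higher without overlap, Adh5 overlapped (0.04) and Adh4 was at 0 in all 6 libraries. Adh1 had 875, 891 and 843 against 723, 726 and 668 CPM (log2 0.30), and Adh7 had 169, 178 and 158 against 138, 116 and 127 CPM (log2 0.41). The aldose reductase Akr1b3, at 986, 975 and 1127 against 870.5, 924 and 889.8 CPM, was the remaining member that lay higher without overlap, and Rdh12 the 1 that lay lower (-0.28). This made 4 of the 21 higher and 1 lower without overlap, where 7.79% and 7.59% of all genes were so. The enzymes that commit retinal to retinoic acid did not separate, with log2 changes of 0.18 for Aldh1a1, 0.02 for Aldh1a2 and -0.15 for Aldh1a3, nor did Rdh10, the main retinol oxidase of embryos (-0.04). Aldh1a1 stood highest of the 3 per gene length, at 10.1 to 14 FPKM over both diets, Aldh1a2 at 6.23 to 9.95 and Aldh1a3 at 0.479 to 1.01. Summed over the 25 genes, the level was 2904 to 3011 CPM on vitamin A and 2429 to 2525 CPM on the normal diet, a sum in which Adh1 and Akr1b3 weigh most.

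**Figure D2:**
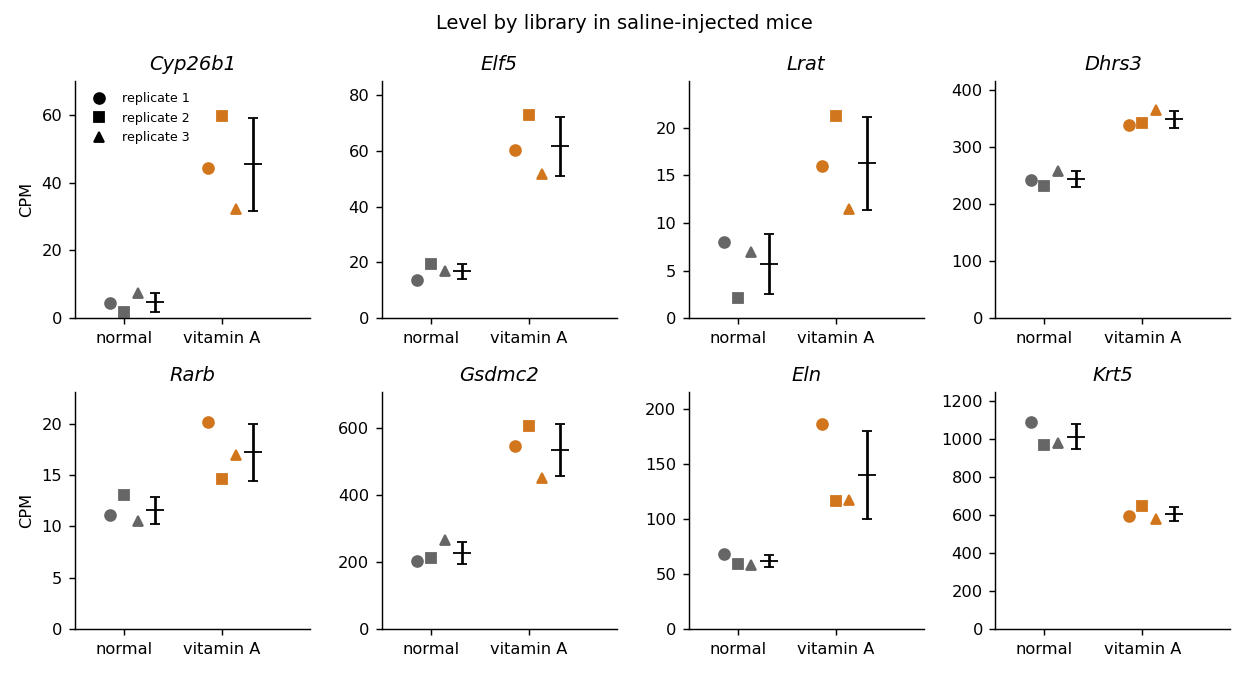
Each panel shows 1 gene, with CPM on the y axis and diet on the x axis. Symbols mark the replicate, and the bar beside them is the mean ± SD of 3 libraries. In all 8 genes the diets do not overlap. Krt5 alone lies lower on vitamin A.

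Among receptors and carriers, 13 genes in the table with 11 tested, 7 lay above 0 and the median log2 was 0.13. Their summed level was nonetheless lower in each vitamin A library, at 663 to 736 CPM against 752 to 803 CPM. Rarb, the retinoic acid receptor whose promoter carries the repeat (chr14:5387365-6038924, plus strand on GRCm39), had 20.1, 14.6 and 16.9 CPM on vitamin A and 11.1, 13.1 and 10.5 CPM on the normal diet. The lowest vitamin A library was close to the highest normal one (log2 0.58, SE 0.19, edgeR unadjusted p = 0.00775). The receptor Rara was at 0.24 and Rarg, the highest of the 3 retinoic acid receptors per gene length at 35.9 to 41.7 FPKM, at -0.03. The partner receptor Rxra lay lower in each vitamin A library, with 272, 307 and 322 CPM against 367, 351 and 392 CPM (log2 -0.30). Crabp2, which carries retinoic acid to the nucleus, was low, at 1.70, 0.791 and 1.07 against 0.246, 0.777 and 0.575 CPM (log2 1.15), and Crabp1 had no count in any of the 6 libraries. Rxrg also lay higher without overlap at a low level (0.63), and the orphan receptor Rora lower (-0.37). Coregulators, which receptors recruit to switch genes on or off, numbered 13, all tested. Of these, 5 were above 0, the median log2 was -0.05, and values ran from -0.32 for the coactivator Ncoa2 to 0.35 for the deacetylase Hdac3.

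The list of genes known as retinoic acid targets held 46 members, of which 39 were tested. It shares Cyp26b1, Lrat, Dhrs3, Rarb and Crabp2, among others, with the lists above. Of the 39, 26 lay above 0 and the median log2 was 0.22. At an unadjusted p under 0.05 there were 6 higher and 0 lower, where 2.1% and 1.68% of all genes were so. The diets did not overlap for 10 members, all of them higher on vitamin A, where 7.79% of all genes lay higher and 7.59% lower without overlap. Of these, Pdk4, Hoxb2, Cd38 and Rai14 are in none of the lists above. Pdk4, a kinase that turns off pyruvate oxidation and also answers to glucocorticoids and fasting, had 81.2, 95.9 and 87.3 against 54.7, 61.1 and 68.1 CPM (log2 0.52, SE 0.16, edgeR unadjusted p = 0.00479). Hoxb2, a homeobox gene, was at 0.26, Rai14, a cytoskeletal protein named for its induction by retinoic acid, at 0.25, and Cd38, an enzyme that consumes NAD, at 0.35. Sox9, a transcription factor of progenitor cells, overlapped at 1.67, 3.52 and 4.26 against 1.68, 0.875 and 2.12 CPM (log2 1.00).

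**Figure D3:**
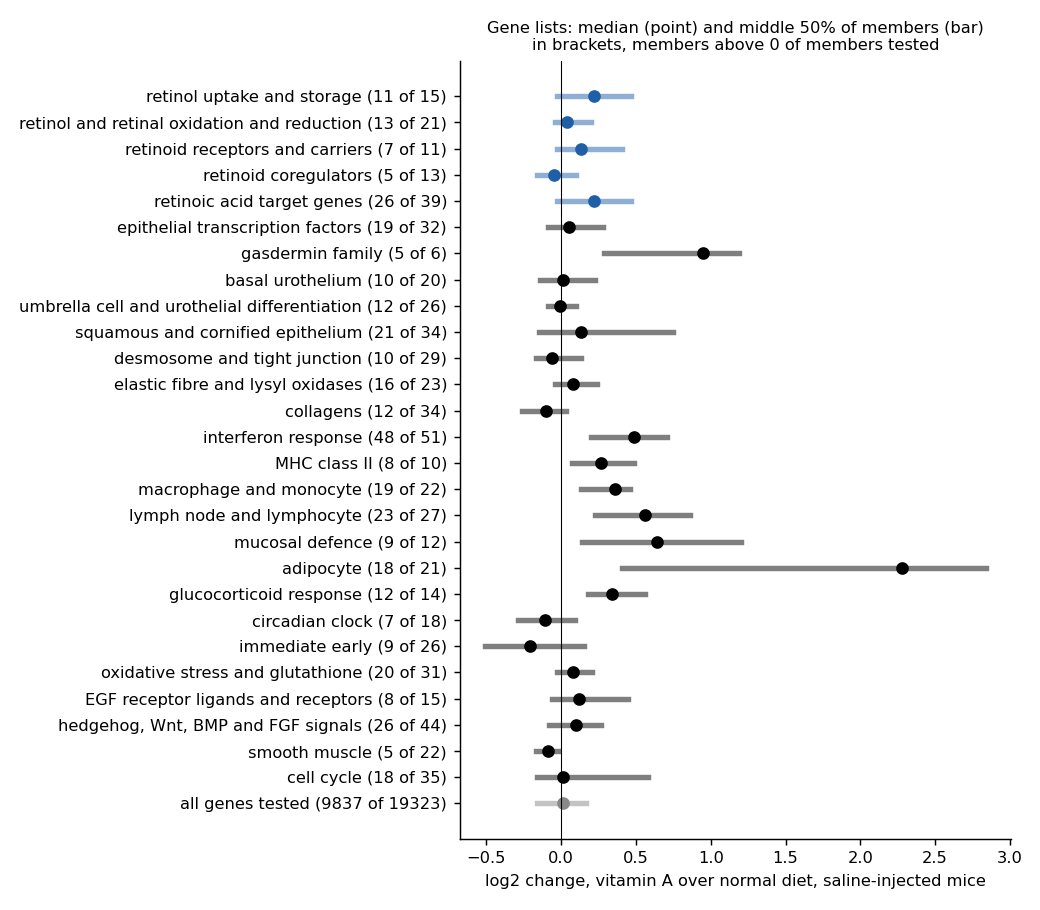
Gene lists on the y axis, each with the number of members above 0 of those tested, and the fitted log2 change, vitamin A over normal diet, on the x axis. Points are medians and bars the middle 50% of members, with retinoid lists in blue and all genes tested (median 0.01) in grey at the bottom. Adipocyte genes (2.28) and gasdermins (0.95) have the highest medians, and immediate early genes (-0.21) the lowest.

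The genes nearest to the threshold on the high side were gasdermins and elastin. Gasdermins are proteins that open pores in membranes, some of them after cleavage during inflammatory cell death, and the Gsdmc genes are expressed in epithelia. The family has 10 members in the table, of which 6 were tested. Of these, 5 lay above 0 and the median log2 was 0.95. Gsdmc2 (chr15:63696177-63717042, minus strand) had 547, 606 and 452 CPM on vitamin A and 202, 213 and 265 CPM on the normal diet. Gsdmc3, its neighbour (chr15:63729454-63750428), had 132, 132 and 129 against 50.4, 48.8 and 65.2 CPM. The diets were clearly apart for both, with log2 changes of 1.24 (SE 0.23, edgeR adjusted p = 0.15) and 1.25 (SE 0.22, edgeR adjusted p = 0.119). Gsdmc4, the next gene of this cluster, was scarce at 0.819, 1.11 and 0.868 against 0.296, 0.534 and 0.484 CPM (log2 1.06). These 3 are close copies of each other, and how reads that align to several genes were counted is not given, so the split between them is uncertain. Gsdmd, the pore former of pyroptosis on the same chromosome (chr15:75733990-75739257), had 83.5, 83.3 and 109.9 against 43.3, 52.5 and 57.8 CPM (log2 0.85, SE 0.17, edgeR adjusted p = 0.325). Gsdma, a skin gasdermin, went the other way without overlap (-0.82), and Gsdme overlapped (0.10). Summed over the family the level was 769.9, 827.6 and 699.1 CPM on vitamin A and 304.6, 322.5 and 396.5 CPM on the normal diet, mostly from Gsdmc2. Over the 6 saline libraries alone edgeR called Gsdmc2 (adjusted p = 0.00377), Gsdmc3 (0.000787) and Gsdmd (0.0289). DESeq2 on all 18 libraries called the same 3 (adjusted p = 0.000182, 0.000182 and 0.00917).

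Eln, the elastin of elastic fibres (chr5:134731449-134776300, minus strand), had 186, 117 and 117 CPM on vitamin A and 68.2, 59.0 and 58.2 CPM on the normal diet. Vitamin A replicate 1 was the highest, and the other vitamin A libraries were also well above the normal ones (log2 1.18, SE 0.21, edgeR adjusted p = 0.119, and 0.0289 over the 6 saline libraries). Of the 5 lysyl oxidases, which crosslink elastin and collagen, Lox and Loxl2 lay higher without overlap (7.79% of all genes did). Loxl1 (0.07), Loxl3 (0.01) and Loxl4 (0.18) overlapped. Lox had 37.8, 34.6 and 22.2 against 20.1, 19.5 and 14.3 CPM (log2 0.81, edgeR unadjusted p = 0.00131), and Loxl2 had 54.0, 53.7 and 44.9 against 40.5, 35.2 and 30.1 CPM (log2 0.53). The list of 23 elastic fibre and lysyl oxidase genes, all tested, had 16 above 0 and a median of 0.08. The diets did not overlap for 6 higher members and 1 lower, where 7.79% and 7.59% of all genes did so. Fbn1, which forms the microfibrils on which elastin is laid, was at 0.10 and Fbln5, which links elastin to cells, at 0.22. Collagens, the other fibres of the wall, had 12 of 34 above 0 and a median of -0.10, with Col1a1 at -0.06. Col8a1, a network collagen of vessels, was the member with the smallest p among them, at 36.0, 40.3 and 35.4 against 27.2, 22.7 and 23.2 CPM (log2 0.61).

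Other genes with the smallest p on the high side have no list in common. Gmpr, which converts GMP to IMP, had 121, 102 and 81.8 against 51.5, 54.8 and 51.1 CPM (log2 0.95, edgeR adjusted p = 0.325). Hk2, the inducible hexokinase, had 23.2, 19.5 and 27.2 against 13.0, 13.0 and 13.3 CPM (log2 0.83). Padi1, which converts arginine in keratins and other proteins to citrulline, had 19.9, 19.9 and 24.7 against 10.5, 9.43 and 8.66 CPM (log2 1.18). For all of these the diets were well apart, and the normal libraries were tight. Hacd4, of fatty acid elongation, stood at 0.62, the interferon-inducible Ifi207 at 1.33 and 2310022B05Rik at 0.57. The authors' deposited table lists 231 features with an adjusted p under 0.05, of which 126 higher (0.652% of the genes tested here) and 98 lower (0.507%) were tested here. All 224 had the same sign in the present fit, which uses the same libraries, and 152 had an unadjusted p under 0.05. By size, its higher genes include the gastrokine Gkn3 (1.88 in the present fit), Plekhs1 (1.64), the UDP-glucuronosyltransferase Ugt2b35 (1.59) and Itgbl1 (1.39). Also among them was Ereg, which encodes the EGF receptor ligand epiregulin, with 6.34, 5.34 and 4.51 CPM on vitamin A and 1.73, 0.972 and 2.51 CPM on the normal diet (log2 1.60). The 15 EGF receptor ligands and receptors tested, Ereg among them, had a median of 0.12 with 8 above 0.

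On the low side, no gene passed, and those with the smallest p include markers of the basal layer. Krt5, the keratin of basal urothelial cells (chr15:101615504-101621340, minus strand), had 592, 647 and 576 CPM on vitamin A and 1088, 969.5 and 976 CPM on the normal diet. Both groups were tight and far from each other (log2 -0.74, SE 0.19, edgeR adjusted p = 0.746). It passed over the 6 saline libraries in edgeR (adjusted p = 0.0103), in DESeq2 on all libraries (adjusted p = 0.0345) and in the authors' deposited table (adjusted p = 4.94e-13). Trim29, which is made in basal cells of stratified epithelia, had 31.4, 37.8 and 44.4 against 77.8, 65.9 and 71.4 CPM (log2 -0.92). Lgr6, a receptor for R-spondins that marks epithelial stem cells in skin, had 2.03, 1.82 and 2.40 against 4.34, 8.99 and 6.60 CPM (log2 -1.67). Fstl4, a secreted follistatin-like protein, had 2.49, 2.37 and 2.36 against 12.8, 8.70 and 8.45 CPM, with vitamin A libraries nearly equal to each other (log2 -2.05, SE 0.45, edgeR adjusted p = 0.378). Slitrk6, a membrane protein, was at -0.99, the cilium genes Crocc and Tctn2 at -0.71 and -0.60, and the cytochrome Cyp3a57 at -0.88. The remaining genes of small p or large ratio were weakly expressed predicted loci. LOC330143, for example, had 2.09, 1.98 and 1.61 against 13.0, 10.4 and 2.91 CPM (log2 -2.20). Normal diet replicate 3 lay far below the other normal libraries there, and the same held for Gm46603 (-1.76) and Gm15816 (-1.74).

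The layers of the urothelium were then described by their markers. The 4 basal markers Krt5, Krt14, Krt15 and Trp63 summed to 1284, 1383 and 1167 CPM on vitamin A and 1938, 1773 and 1746 CPM on the normal diet, so every vitamin A library was lower. Krt5, described above, weighs most in this sum and in its difference. Krt15 contributed 480.2, 515 and 356 against 634, 591 and 561 CPM (log2 -0.40), whereas Trp63, the transcription factor of basal cells, was at 0.06. The wider list of 20 basal genes had 10 above 0 and a median of 0.01, and 4 members were lower without overlap (7.59% of all genes were), among them the basement membrane subunit Lamb3 (-0.34) and the integrin Itga6 (-0.28). Umbrella cell and differentiation genes had 12 of 26 above 0 and a median of -0.01. The uroplakins, which plate the surface, were at 0.02 (Upk1a), -0.02 (Upk1b), -0.20 (Upk2) and 0.01 (Upk3a). Krt20, the umbrella cell keratin, had 117, 128 and 132 against 165, 160.3 and 159 CPM, lower in each vitamin A library (log2 -0.36). The mucin Muc20 was higher at a low level, with 1.91, 2.06 and 4.71 against 0.641, 0.923 and 0.182 CPM (log2 2.34). Squamous and cornified genes, which a lack of vitamin A would raise, had 21 of 34 above 0 and a median of 0.13. Their summed level was higher in each vitamin A library, at 5307 to 5435 CPM against 4868 to 5064 CPM. Lypd3 was lower (-0.52), and Krt4 (1.41) and Nccrp1 (1.74) were higher at low levels, Krt4 with 16.6 CPM in vitamin A replicate 1 and 3.02 CPM in replicate 3. Of the desmosome and tight junction genes, which hold the cells together, 10 of 29 lay above 0 (median -0.06). The plaque protein Pkp1 had the smallest p of them, at 7.77, 9.42 and 10.9 against 17.6, 16.8 and 19.3 CPM (log2 -0.94, edgeR unadjusted p = 0.0142). Dsp was at -0.43 and the claudin Cldn7 at 0.37.

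Among 33 epithelial transcription factors, 32 of them tested, Elf5 was the 1 member past the threshold. Of the 32, 19 lay above 0, the median was 0.05, and the diets did not overlap for 3 higher and 7 lower members (7.79% and 7.59% of all genes). Cebpb, a factor of differentiation and inflammation, had 82.1, 57.4 and 53.2 against 44.0, 38.8 and 45.2 CPM (log2 0.59). The Krüppel-like factors Klf4 (-0.38), Klf5 (-0.37) and Klf6 (-0.26) each lay lower without overlap, as did the grainyhead factors Grhl2 (-0.20) and Grhl3 (-0.15). Among further regulators of urothelial differentiation, 3 overlapped between diets, with Gata3 at -0.07, Foxa1 at 0.00 and Pparg, which drives umbrella cell differentiation, at 0.21.

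Interferon, MHC class II, macrophage and lymphocyte genes lay higher on vitamin A as lists, and this went with vitamin A replicate 3. Interferon response genes had 48 of 51 above 0 and a median log2 of 0.49, with 11 higher and 0 lower at an unadjusted p under 0.05 (2.1% and 1.68% of all genes) and 9 higher without overlap (7.79% of all genes). Their summed level was 933.9, 800.7 and 1300 CPM on vitamin A and 804.1, 805.6 and 767.4 CPM on the normal diet, so replicate 2 matched the normal libraries and replicate 3 was far above. Without vitamin A replicate 3 the median was 0.17 with 42 above 0. Usp18, which damps interferon signalling, stood apart in all 3 libraries, at 23.6, 25.8 and 30 against 16.9, 15.3 and 17.2 CPM (log2 0.68), and so did Irf9 (0.55), a subunit of the interferon-activated factor. MHC class II genes, which present antigen, had 8 of 10 above 0 and sums of 542.7, 397.8 and 951.8 against 499.8, 391.7 and 371.5 CPM. Their median was 0.27, and -0.18 without vitamin A replicate 3. Macrophage and monocyte genes had 19 of 22 above 0 and a median of 0.36, which was 0.03 without that library. Cd14, a co-receptor for bacterial lipopolysaccharide, was separate on the 2 diets, at 36.8, 30.9 and 42.2 against 19.9, 23.6 and 23.2 CPM (log2 0.72). Lymphocyte genes had 23 of 27 above 0 and sums of 59.35, 43.09 and 133.3 against 70.08, 37.89 and 40.63 CPM, and their median of 0.56 became -0.15 without vitamin A replicate 3. Summed cell markers moved with that library, at 131.4 to 220.7 CPM on vitamin A and 139.9 to 163.9 CPM on the normal diet for the 4 macrophage markers and 0.831 to 7.11 against 0.777 to 3.10 CPM for the 3 T cell markers. The 3 neutrophil markers summed to at most 0.372 CPM in any of the 6 libraries. The wider neutrophil list was lower in sum, at 23.7, 22.36 and 25.55 CPM on vitamin A and 27.6, 27.11 and 31.94 CPM on the normal diet. Its median log2 was 0.37, with 5 of 8 tested above 0. The part of immune cell content in the values of these lists was not tested.

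**Figure D4:**
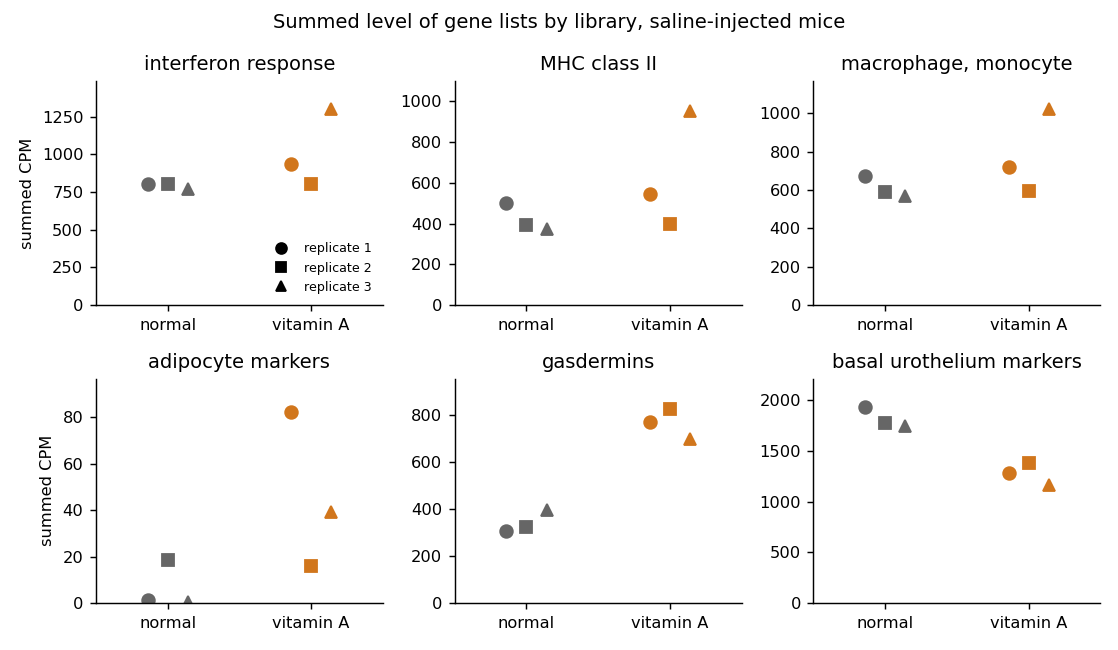
Summed CPM on the y axis by diet on the x axis for 6 gene lists, with symbols marking the replicate. Vitamin A replicate 3 stands above the other libraries in the interferon, MHC class II and macrophage panels and vitamin A replicate 1 in the adipocyte panel, while gasdermins and basal markers separate the diets in all 6 libraries.

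Mucosal defence genes had 9 of 12 tested above 0 and a median log2 of 0.64, or 0.24 without vitamin A replicate 3. Reg3g, an antibacterial lectin, had 2.03, 2.06 and 7.69 against 0.542, 1.17 and 0.273 CPM (log2 2.64, SE 0.56, edgeR adjusted p = 0.33). Defb1, a defensin secreted by epithelia, had 20.9, 16.3 and 15.5 against 8.97, 8.36 and 6.05 CPM (log2 1.18, edgeR adjusted p = 0.933, and 0.0289 over the 6 saline libraries). Both were higher in each vitamin A library. Pigr, which carries antibodies across epithelia, was high in 1 library, at 12.1, 11.4 and 112 against 15.1, 13.3 and 13.3 CPM. Slpi, a protease inhibitor of mucus, was lower (-0.97).

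The 4 adipocyte markers Adipoq, Plin1, Cidec and Lep summed to 82.23, 15.79 and 39.39 CPM on vitamin A and 1.084, 18.36 and 0.545 CPM on the normal diet, so normal diet replicate 2 lay above vitamin A replicate 2. Lep and Cidec were at 0 in some normal libraries. The list of 21 tested adipocyte genes had 18 above 0 and a median of 2.28, which was 1.28 without vitamin A replicate 1 and 3.34 without normal diet replicate 2. The part of fat attached to the bladder in these values was not tested. Glucocorticoid-responsive genes had 12 of 14 above 0 and a median of 0.34, with Sgk1, a kinase of salt transport, at 30.3, 41.7 and 33.2 against 20.0, 23.2 and 26.2 CPM (log2 0.60) and the cell cycle inhibitor Cdkn1a at 75.2, 69.1 and 71.2 against 53.1, 54.5 and 48.4 CPM (log2 0.47). Neither overlapped between diets. Immediate early genes, which respond within minutes to handling and stimulation, had 9 of 26 above 0 and a median of -0.21, or -0.04 without normal diet replicate 3. Egr1, their best known member, had 5.34, 5.30 and 11.1 against 11, 36.7 and 59.8 CPM, with normal diet replicate 1 among the vitamin A libraries. Clock genes had 7 of 18 above 0 and a median of -0.11, with the clock output factors Dbp at 75.2, 96.0 and 93.2 against 116, 135 and 166 CPM (log2 -0.66) and Tef at -0.34. The hour of collection is not given in the sources used here.

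Genes of oxidative stress and glutathione had 20 of 31 above 0 and a median of 0.08, and 13 of them lay higher and 3 lower without overlap (7.79% and 7.59% of all genes). The glutathione enzymes Gpx1 (0.36), Gsta3 (0.46) and Mgst1 (0.30) and the quinone reductase Nqo1 (0.32) were among the higher, and the cystine transporter Slc7a11 among the lower (-0.77). At an unadjusted p under 0.05 in edgeR, 0 of the 31 were higher and 1 was lower (2.1% and 1.68% of all genes). Of the hedgehog, Wnt, BMP and FGF signals, 26 of 44 lay above 0 (median 0.10). Bmp2, a growth factor passed between lining and stroma, had 100.1, 129.8 and 113 against 83.2, 59.2 and 85.7 CPM (log2 0.59, edgeR unadjusted p = 0.00182). Cell cycle genes had 18 of 35 above 0 and a median of 0.01, and smooth muscle genes 5 of 22 and a median of -0.09.

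Genes whose level followed that of Cyp26b1 most closely were listed as a description. Over the 6 saline libraries, where the points share the diet difference, the highest Pearson correlations of log2 CPM were those of Tmem229a (0.995), the glutaminase Gls2 (0.993), Plpp4 (0.992), Gm14303 (0.984), the zinc transporter Slc30a5 (0.984) and Ereg (0.984). Slc30a5 shows how small a difference can follow so closely, with 71.2, 71.7 and 69.7 against 67.2, 64.7 and 67.0 CPM. Over all 18 libraries, which also share the injury, the genes most like Cyp26b1 were Elf5 (0.877) and Pdk4 (0.867), and Lrat was the fifth (0.785).

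The last comparison asked whether the diet difference at rest differed from that after cyclophosphamide. The interaction of diet with cyclophosphamide was tested in the same fit, and the 2 differences share no library. In edgeR no gene passed at 1 day (0%) or at 3 days (0%), while an unadjusted p under 0.05 was reached by 1505 genes (7.79%) and 464 genes (2.4%), respectively. With DESeq2 there were 120 genes past the threshold at 1 day and 0 at 3 days. Cyp26b1 had log2 changes of 3.26 at rest, 3.32 at 1 day and 2.90 at 3 days after cyclophosphamide, and the differences from rest were 0.07 (SE 0.53, edgeR adjusted p = 0.993) and -0.36 (SE 0.54, edgeR adjusted p = 1). Elf5 had 1.88, 0.98 and 1.45, with differences of -0.90 (SE 0.35, edgeR adjusted p = 0.518) and -0.43 (SE 0.35, edgeR adjusted p = 1). Lrat (1.51, 1.35 and 1.88), Pdk4 (0.52, 0.63 and 0.77) and Fstl4 (-2.05, -2.20 and -1.19) kept their sign in the 3 conditions. Gsdmc2 (1.24, 0.09 and -0.10), Gsdmc3 (1.25, 0.34 and -0.19) and Eln (1.18, 0.13 and 0.03) were near 0 after cyclophosphamide, though none of these differences passed. For Gsdmc2 the normal diet libraries after cyclophosphamide were at 665 to 1019 CPM, above every saline library. Krt5 was at -0.74, 0.34 and -0.37, and Dhrs3 at 0.51, -0.02 and 0.58. The genes with the smallest p for the interaction at 1 day were Gm39876, the glucose transporter Slc2a1 and the receptor kinase Epha2 (edgeR adjusted p = 0.093 each). Slc2a1 had log2 changes of -0.26 at rest and 1.00 at 1 day, and Epha2 of -0.68 and 1.37. At 3 days the genes with the smallest p for the interaction were Gsdmc3, Gm9530 and Gm22442, none of which passed. The day of collection differs as well in the comparison with 3 days.

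**Figure D5:**
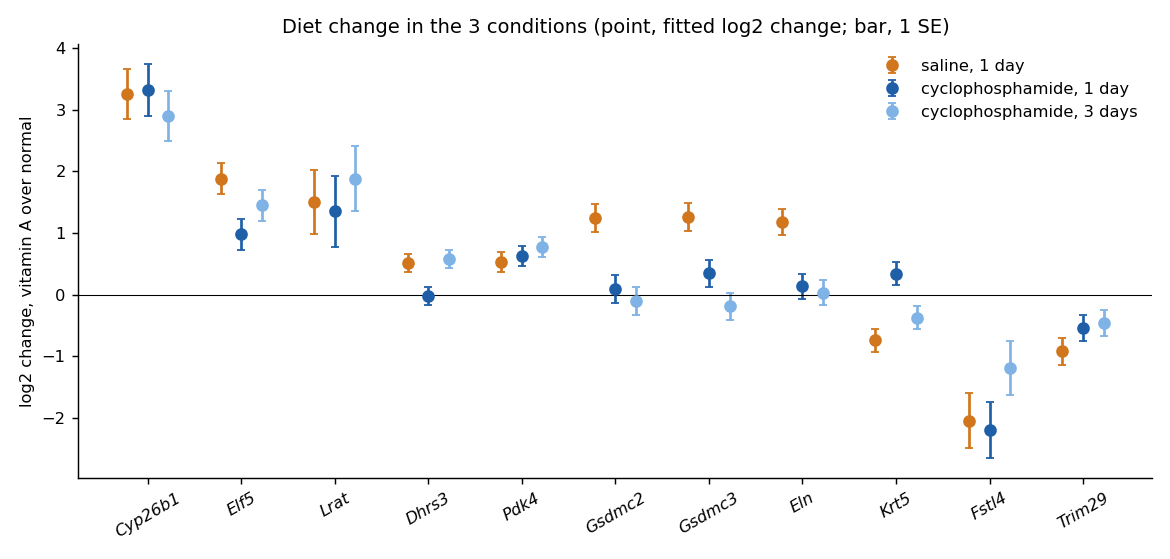
Fitted log2 change, vitamin A over normal diet, on the y axis for 11 genes on the x axis, in saline mice (orange), 1 day after cyclophosphamide (dark blue) and 3 days after (light blue), with bars of 1 SE. Cyp26b1 lies between 2.90 and 3.32 in all 3 conditions, whereas Gsdmc2, Gsdmc3 and Eln lie above 1 in saline mice alone.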

How the data were processed

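Bladder RNA of 18 mice was sequenced by the submitters, 3 per group, and the 6 saline libraries are compared here. The submitters' processing notes name DESeq2 1.20.0, featureCounts 1.5.0-p3, HISAT2 2.0.5 and the build GRCm39. What each did, whether counting used strand, and how multiply aligned reads were treated is not given in the sources used here. Per the labels, total RNA was made into libraries by an NEBNext Ultra protocol.

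The authors deposited whole-number counts per gene, FPKM per gene, and a table of the diet comparison in saline mice with a log2 ratio (normal over vitamin A, sign turned here), its p-value, the p-value adjusted for multiple tests and each group's mean normalised signal. From its values that deposited table lists unadjusted p-values of at most 0.05. Unnamed features (14417 of 60750, 0.482% to 0.557% of the counts of a saline library) were left out of library sizes and tests. No column of other samples was found (0).

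The test on counts was run by edgeR 4.0.16 in R 4.3.3 (TMM scaling, filterByExpr, robust quasi-likelihood fit of 6 group means over all 18 libraries, 12 residual degrees of freedom). Tests are 2-sided, with Benjamini-Hochberg values over all 19323 genes and a threshold of 0.05. DESeq2 1.42.0 was an alternative. CPM are TMM-scaled. Levels of different genes were compared by the deposited FPKM. Diets do not overlap where all 3 libraries of 1 diet lie above all 3 of the other. Exact permutation of 3 against 3 cannot go below 0.1, so single genes rest on the shared model. Mice are labelled as biological replicates. In the main fit each p-value sets a difference against the spread between replicates, estimated over all 18 libraries.

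The comparison, its 42 gene lists and the rules were chosen with earlier results of these data known. Some list members count in their lists and are not reported here by name. The lists not described in the results held no gene past the threshold in edgeR over all 18 libraries. Named genes are those past the threshold, the 12 each way with the smallest p and a log2 CPM averaging 1 or more, the 8 each way with the largest ratio past 0.05 in the authors' deposited table, members of the retinoid, gasdermin, epithelial factor and elastic fibre lists, up to 6 members of other lists by p, the cell type markers, the 8 genes most like Cyp26b1 and the 3 with the smallest p in each interaction. Alternatives were other scaling, no filter, DESeq2, the 6 saline libraries alone, no robust option, unnamed features kept, a replicate block, leaving out each saline library, and unscaled CPM or FPKM for the count of genes without overlap.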

Additional observations from a re-analysis of the deposited data

Results flagged for a closer look

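A signal stood outside the genes described, among features that the table does not name. Of 1946 such features tested, 1 passed in edgeR with these features kept, and 54 had an unadjusted p under 0.05. Of the 19323 named genes, 2 passed in the main fit (0.0104%) and 730 had an unadjusted p under 0.05 (3.78%). The unnamed feature that passed lies on chromosome 6 from 18842881 to 18848521 (minus strand, 5641 bases, GRCm39). It is 113 bases from Lsm8, an RNA-binding protein gene on the opposite strand, and without stated strandedness reads of neighbours cannot be told apart. It had 243, 323 and 182 CPM on vitamin A and 107, 94.0 and 85.9 CPM on the normal diet, with no overlap, and a log2 change of 1.38 (edgeR adjusted p = 0.0143). After cyclophosphamide it also lay higher on vitamin A, by 1.04 at 1 day (edgeR adjusted p = 0.0271) and 0.90 at 3 days (0.655). The differences from rest were -0.34 and -0.48 and did not pass (edgeR adjusted p = 0.864 and 1).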

How the results depend on the processing

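The count of genes past the threshold at rest was 2 with DESeq2's size factors, without the robust option and with the replicate block (Cyp26b1 3.34, adjusted p = 0.00898; Elf5 1.87, 0.0173). It was 3 with unnamed features kept, 7 without the filter (7 higher, 0 lower), 17 in DESeq2 (10 and 7), 35 in edgeR on the 6 saline libraries (21 and 14), 244 in DESeq2 on those (134 and 110), and 0 to 2 with 1 saline library left out. Leaving out normal diet replicate 1 gave 0, and leaving out vitamin A replicate 2 or normal diet replicate 3 gave 1. The interaction at 1 day gave 25 genes without the filter, 120 in DESeq2 and 0 to 9 with 1 library left out (2 when this was vitamin A replicate 2 and 9 when it was normal diet replicate 3), and that at 3 days 0 in every alternative. For Cyp26b1 the interaction ran from -0.49 to 0.42 at 1 day and from -0.91 to 0.00 at 3 days with 1 library left out, and was -0.03 at 1 day with the replicate block. The cause was not tested in any of these.

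Medians of these lists moved by more than their spread between libraries when 1 saline library was left out. The range was 0.15 to 0.38 for retinol storage, 0.01 to 0.13 for oxidation and reduction, 0.04 to 0.16 for receptors, -0.03 to 0.03 for umbrella cell genes, 0.06 to 0.19 for squamous genes, -0.01 to 0.20 for elastic fibre genes, 0.17 to 0.63 for interferon response, 0.03 to 0.49 for macrophage genes, 0.24 to 1.06 for mucosal defence, 1.28 to 3.34 for adipocyte genes, 0.19 to 0.49 for glucocorticoid response, -0.25 to -0.04 for immediate early genes, 0.07 to 0.15 for oxidative stress, -0.03 to 0.28 for EGF receptor genes and 0.03 to 0.12 for hedgehog, Wnt, BMP and FGF signals. Without the filter squamous genes were at 0.07. EGF receptor genes were at -0.02 on the 6 saline libraries alone and 0.01 with the replicate block. The count of genes without overlap was 2972 (15.4%), 2947 with unscaled CPM and 2976 with the authors' FPKM. Without the filter it was 3333 of 29679 genes, a lower share (11.2%).

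Deviations of libraries with the same replicate number correlated from -0.123 to 0.197 over 45 pairs, and from -0.0365 to 0.0515 over the 3 saline pairs. Between libraries with different numbers the range was -0.173 to 0.207. The replicate numbers were therefore not used to pair the mice, and pairing by cage or day was not tested. The study has 3 mice per diet and 1 organ, and at this depth Cyp26a1, Cyp26c1 and Crabp1 were too scarce to test.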
